A study of Drosophila melanogaster with 6 samples.

Results

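The 10 genes described here encode transcription factors that give Drosophila photoreceptors their subtype: gl, ro, svp, lz, B-H1, B-H2, salm, salr, run and pros. They were chosen by symbol from a table of 17609 genes, in which all 10 were found. All 10 also passed the filter on low counts that left 9417 genes for testing, ro and run through their control libraries, since their counts in dTet discs were too low for it. RNA came from eye-antennal imaginal discs of larvae in the third instar, the epithelia from which the compound eye, the antenna and the head capsule form. The 3 control samples carried the driver ey-Gal4 with W1118, a white mutant background, and no UAS transgene named in the labels. The 3 dTet samples carried ey-Gal4 with UAS-dTet, a transgene of the fly Tet dioxygenase. Both groups thus share the driver, and the disc holds antenna and head tissue beside the eye part. Where in the disc the driver acted, and when, was not measured here. Each sample is labelled a biological replicate, and the sex, the number of discs per sample and a finer stage are not given in the sources used here.

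An ommatidium, the unit eye, is built behind the morphogenetic furrow by adding photoreceptors to a founder cell in a fixed sequence. R8 comes first, the pairs R2/R5 and R3/R4 join it, R1/R6 follow after a further round of division, and R7 comes last, before the lens-secreting cone cells. gl is needed by photoreceptors in general, ro acts in R2/R5 and R3/R4, svp in R3/R4 and R1/R6, B-H1 and B-H2 in R1/R6, lz in R1/R6, R7 and cone cells, run in R7 and R8, pros in R7 and cone cells, and salm and salr in R3/R4 and later in R7 and R8. Several work elsewhere too: salm, salr, B-H1 and B-H2 in the antenna, lz in the crystal cells of the blood, and pros in neural precursors and glia.

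The libraries held 18306991 to 20242356 counted read pairs in the controls and 16395675 to 19966431 in the dTet discs. Tet itself stood at 315.8, 348.2 and 384.7 CPM (the count of read pairs relative to the size of the library after TMM scaling) in control replicates 1 to 3 and at 364.5, 456.9 and 416.1 CPM in the dTet replicates. These ranges overlapped, and the difference did not pass the test (log2 fold change 0.24, SE 0.13, edgeR adjusted p = 0.244). Gene counts do not part transcripts of the endogenous gene from those of the transgene. Markers of the eye field (so at 100.1 CPM in controls) and of the antenna (Dll at 101.8 CPM) were both present, beside transcripts of tissues that lie next to the discs. The summed level of 5 fat body markers ranged widely, from 438.3 to 1952 CPM in controls and from 339.7 to 977.7 CPM in dTet discs, and none of the 5 passed the test described below (edgeR; 1 lower at an unadjusted p under 0.05, 0 in DESeq2). Of 5 muscle markers 1 was higher (Mhc), with 5 higher at an unadjusted p under 0.05 and 3 in DESeq2, and of 4 ring gland markers 1 was lower (nvd), with 2 lower at an unadjusted p under 0.05 and 2 in DESeq2. Of 2 tracheal markers 0 passed by edgeR (also 0 at an unadjusted p under 0.05 and in DESeq2). Among all tested genes 3.77% were higher and 7.64% lower by edgeR.

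Of the 10 factors, 7 were lower in dTet discs by edgeR's quasi-likelihood test at an adjusted p under 0.05: gl, ro, svp, lz, B-H2, B-H1 and pros. None was higher, 0 of 10 also at an unadjusted p under 0.05 and in DESeq2, and salm, salr and run did not pass. Among all 9417 tested genes 11.4% were called, 7.64% lower and 3.77% higher. The fitted falls ran from 2.21-fold in B-H1 to 113.9-fold in ro, so that the members differed widely among themselves. The median log2 fold change of the 10 was -2.08, beside -0.02 over all tested genes. In 8 of 10 every dTet library lay below every control library, the 7 called genes and run, which held for 17.6% of tested genes. Both counts include ro, and the count of 8 also run. These genes passed the filter on low counts through their control libraries, so a difference, if any, could hardly be other than lower. No member had every dTet library above every control library, as 15.1% of tested genes did. In whole discs, fewer cells of a type and less RNA per cell cannot be told apart.

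**Figure D1:**
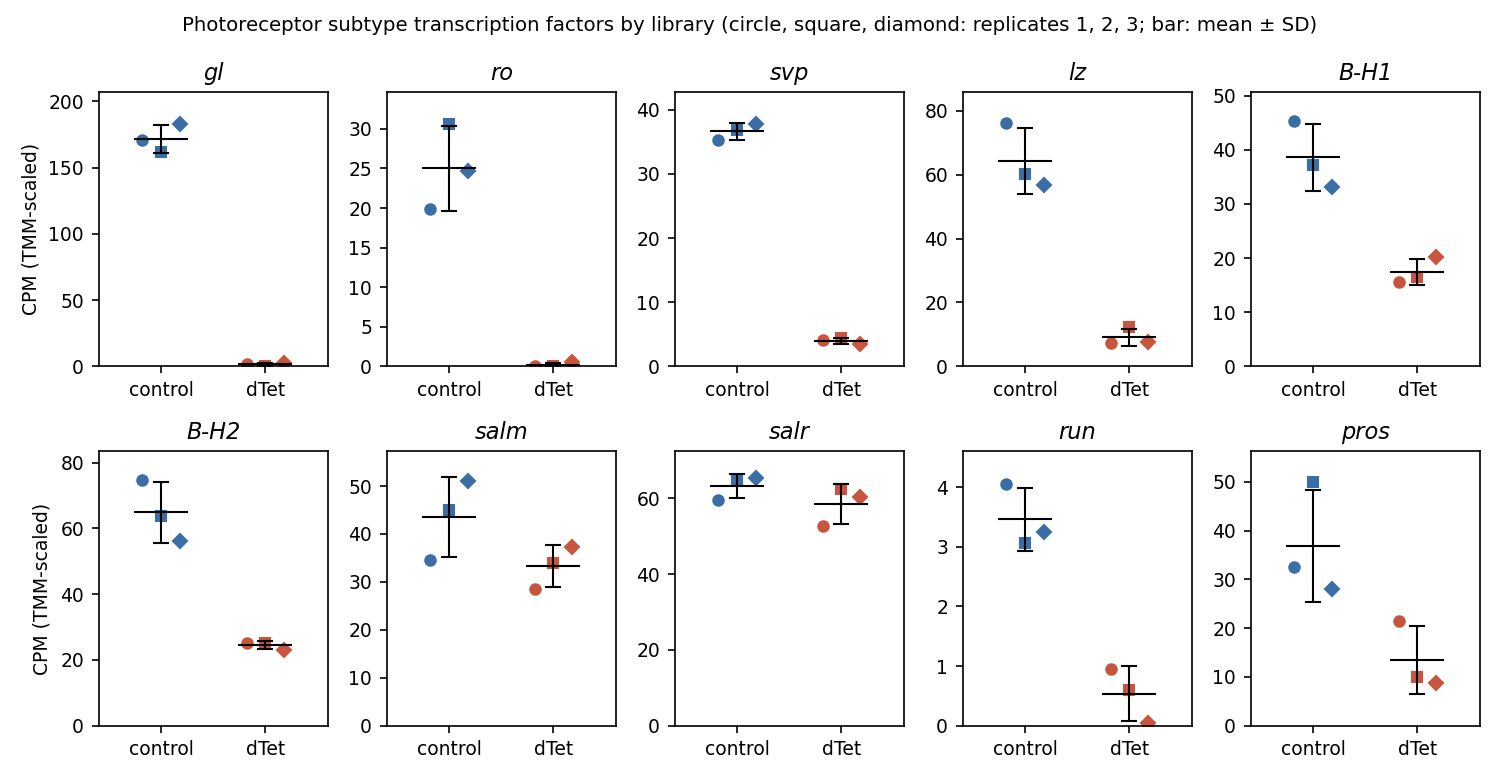
Level of each factor in CPM on a linear axis from 0, in the 3 control and 3 dTet libraries, with the mean and SD of each group as bars. The groups stand apart in 8 panels and overlap for salm and salr.

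gl, a zinc finger factor needed for all photoreceptor types, lies on 3R at 18367927 to 18372738 (dm6, minus strand). It was measured at 170.9, 161.5 and 182.6 CPM in control replicates 1 to 3 and at 1.67, 0.656 and 2.69 CPM in dTet replicates 1 to 3. All control libraries were close to each other, with an SD of 6.14% of their mean, and 0.974% of the mean level was left in dTet discs. The fold change was 100.8 downward (95% interval 60.0 to 169.3, edgeR adjusted p = 3.46e-06). The dTet counts behind it were 28, 12 and 55 read pairs.

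The nearest tested gene upstream of gl, the long noncoding RNA gene lncRNA:CR44946, lies 1798 bases away on the opposite strand, at 18374536 to 18376497. It had 22, 22 and 17 counts in the controls and 0 in each dTet library. Taking 3 counts in the 3 dTet libraries together as the floor, it was at least 19.8-fold lower (edgeR adjusted p = 0.0107). With 0 counts in dTet discs it passed the filter on low counts through its control libraries alone, so a call, if any, could hardly be other than lower. Nup43, a nuclear pore gene 14 bases downstream of gl, had a log2 fold change of 0.05 (edgeR adjusted p = 0.834).

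ro, a homeobox gene needed in R2 and R5, is on 3R at 26876771 to 26881171. Its controls stood at 19.9, 30.6 and 24.7 CPM. In dTet discs it had 1, 0 and 11 read pairs, or 0.0598, 0 and 0.538 CPM, so that 1 library held nearly all of what was left. It was 113.9-fold lower (95% interval 43.3 to 299.7, edgeR adjusted p = 0.000125). Having passed the filter on low counts through its control libraries, ro could hardly be called other than lower. Without dTet replicate 3 the fitted fold was 711.6 and rested on 1 count, and the summed counts of all libraries stood in a ratio of 114.3 (95% interval from counting error alone 65.2 to 221.8). CG5500, whose span overlaps ro on the other strand without sharing exon bases, did not pass (log2 fold change -0.43, edgeR adjusted p = 0.309).

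svp encodes a nuclear receptor of the COUP-TF family that sets R3/R4 and R1/R6 apart from R7, and lies on 3R at 12258737 to 12302785. Control libraries stood at 35.3, 36.8 and 37.8 CPM and dTet libraries at 4.13, 4.37 and 3.42 CPM. Its values were the most even of the 10 in controls, with an SD of 3.45% of the mean. The 9.22-fold fall (95% interval 7.08 to 12.01, edgeR adjusted p = 4.51e-06) kept between 8.66-fold and 9.71-fold in the 14 alternatives. svp shares 115 exon bases with CG44037 on the same strand, and pairs that fall in exons of both genes are left out of either count. The 4 nuclear receptors and partners listed with it did not pass in either direction, 0 of 4 also at an unadjusted p under 0.05 and in DESeq2: usp, EcR, Hnf4 and Hr78 had log2 fold changes from 0.09 to 0.21.

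lz, a Runt domain factor of R1/R6, R7 and cone cells, is on X at 9284649 to 9303636. It was at 76.0, 60.2 and 56.7 CPM in controls and at 7.29, 12.3 and 7.58 CPM in dTet discs. The groups were far apart, although control replicate 1 and dTet replicate 2 each stood above the rest of their group. The fall was 7.10-fold (95% interval 4.98 to 10.1, edgeR adjusted p = 5.73e-05). Because lz also acts in crystal cells, the markers of these blood cells are given beside it: all 3 listed were lower, the prophenoloxidase genes PPO1 3.93-fold (edgeR adjusted p = 7.9e-05) and PPO2 4.32-fold (0.00154), and peb, a zinc finger gene also used by photoreceptors, 9.15-fold (6.02e-06). Among all tested genes 7.64% were lower. The summed level of the 3 crystal cell markers was 261.3 to 322.2 CPM in controls and 50.2 to 53.3 CPM in dTet discs. The largest part of the control sum was peb, with a mean of 125.1 CPM, beside 89.55 CPM for PPO1 and 67.36 CPM for PPO2. PPO2 varied widely in controls, at 38.1, 93.7 and 70.2 CPM. Of 6 markers of other hemocytes 0 passed (1 lower at an unadjusted p under 0.05, 0 in DESeq2), with Hml at log2 -0.32. The part of crystal cells in the fall of lz was not tested.

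run, the other Runt domain factor of the set, marks R7 and R8 and lies on X at 20690670 to 20697321. It had the fewest counts of the 10 in controls, with 4.06, 3.07 and 3.25 CPM in controls and 0.957, 0.601 and 0.0489 CPM in dTet discs. The dTet counts were 16, 11 and 1, below every control library. The fitted difference of log2 -2.70 (SE 0.79, 95% interval -4.48 to -0.93) did not pass after adjustment (edgeR adjusted p = 0.0577; unadjusted p = 0.00729). It did pass in DESeq2 (adjusted p = 0.00266), in limma-voom (0.0352), with no filter on low counts (0.025) and with a filter of 1 CPM in 3 libraries (0.046), so its side of the threshold hangs on the choice. With single libraries left out it did not pass, and the fitted fold was 10.72 without dTet replicate 1 and 4.45 without dTet replicate 3. Among the partners of Runt domain proteins, Bgb, which encodes a CBF-beta subunit, was 1.47-fold lower (edgeR adjusted p = 0.0218), and the corepressor gene gro did not pass (log2 fold change 0.09). RunxA, RunxB and Bro had at most 12 counts in any group and were not tested.

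The Bar genes B-H1 and B-H2 are paralogous homeobox genes that work together in R1/R6. They are neighbours on X, at 17397478 to 17403278 and 17314581 to 17324175, with 73303 bases and no other tested gene between them. B-H1 was at 45.4, 37.1 and 33.2 CPM in controls and at 15.6, 16.4 and 20.2 CPM in dTet discs. B-H2 was at 74.7, 63.7 and 56.2 CPM in controls and at 25.3, 25.2 and 23.0 CPM in dTet discs. In both genes control replicate 1 was the highest, and the groups did not overlap. B-H1 fell 2.21-fold (95% interval 1.69 to 2.90, edgeR adjusted p = 0.0026) and B-H2 2.65-fold (2.13 to 3.29, 0.000217). The flanking genes CG5445 and CG8611 had log2 fold changes of -0.08 and 0.40, neither past the test.

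Per kilobase, B-H1 stood at 0.685 of the level of B-H2 in controls and at 0.816 in dTet discs. The log2 ratio was -0.51, -0.57 and -0.55 in the controls and -0.49, -0.41 and 0.02 in dTet discs. Its difference of 0.25 gave an exact two-sided permutation p of 0.1, the smallest that 3 against 3 samples allow, and it was 0.10 without dTet replicate 3. The 2 other pairs compared in the same way overlapped between groups. For salm to salr the log2 ratio differed by -0.26 (exact permutation p = 0.2), and for lz to run by 0.42 (exact permutation p = 0.7), a value that turned to -0.61 without dTet replicate 3, where run had 1 count.

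salm and salr encode zinc finger factors of the Spalt family, used in R3/R4, in the inner photoreceptors and also in the antenna. They are neighbours on 2L, salr at 11358873 to 11373636 and salm at 11434311 to 11445614. salr was at 59.7, 64.7 and 65.3 CPM in controls and at 52.7, 62.6 and 60.2 CPM in dTet discs. salm was at 34.6, 45.0 and 51.0 CPM in controls and at 28.6, 33.9 and 37.2 CPM in dTet discs. The groups overlapped for both. Neither passed the test: salr had a log2 fold change of -0.11 (SE 0.11, edgeR adjusted p = 0.543) and salm of -0.39 (SE 0.17, edgeR adjusted p = 0.172). The 95% interval of salr allows a fall of up to 1.29-fold and that of salm one of up to 1.71-fold. Control replicate 1 was the lowest control for salm, and without it salm passed, at log2 -0.55 (edgeR adjusted p = 0.0136).

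Antennal and head genes, listed because salm, salr and the Bar genes also work in that part of the disc, were higher in 9 of 12 and lower in 2, with a median log2 fold change of 0.82. Among all tested genes 3.77% were higher and 7.64% lower. The disco-related gene disco-r rose 2.08-fold, the homeobox genes ct and Dll 1.87-fold and 1.90-fold, and dan fell 2.41-fold (edgeR adjusted p from 0.000159 to 0.00077). The summed level of the 12 was 963.9 to 981.1 CPM in controls and 1414 to 1480 CPM in dTet discs. How much of the remaining salm, salr, B-H1 and B-H2 signal came from antennal cells was not tested.

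pros encodes a homeodomain factor of R7 and cone cells and lies on 3R at 11328480 to 11407627. It was at 32.6, 49.95 and 28.1 CPM in controls and at 21.5, 9.998 and 8.85 CPM in dTet discs. Among the called members pros was the most variable in controls, with an SD of 31.3% of the mean, and dTet replicate 1 stood above the other dTet libraries. The fall was 2.75-fold (95% interval 1.59 to 4.74, edgeR adjusted p = 0.0273). The call ended without control replicate 2 (adjusted p = 0.0861), dTet replicate 2 (0.111) or dTet replicate 3 (0.107). Of 5 glial markers, given because pros also acts in glia, 3 were lower: repo 2.34-fold (edgeR adjusted p = 0.0218), moody 2.09-fold (0.0215) and Gli 1.35-fold (0.0379). The summed level of the 5 was 589.0 to 642.6 CPM in controls and 462.8 to 492.0 CPM in dTet discs. Most of that sum came from Gli and nrv2, with control means of 329.2 and 245.1 CPM. The control means of repo and moody were 21.2 and 11.1 CPM. Among all tested genes 7.64% were lower. None of 5 neuroblast markers passed (1 lower and 1 higher at an unadjusted p under 0.05, 0 in DESeq2). The part of glia in the fall of pros was not tested.

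**Figure D2:**
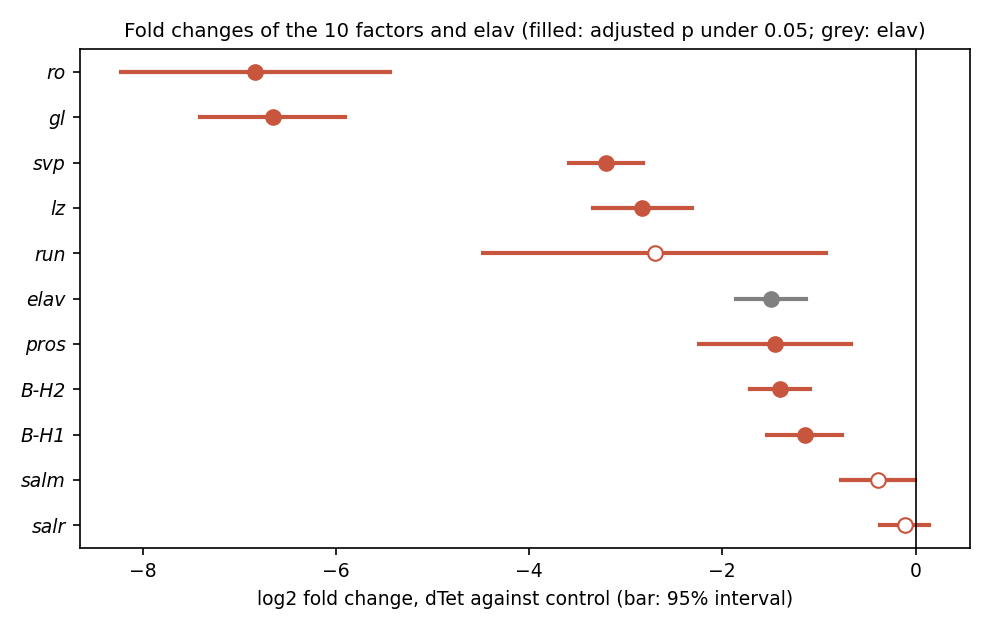
Log2 fold change of each factor, dTet against control, with its 95% interval, and elav in grey for reference. Filled points have an adjusted p under 0.05. gl and ro lie near -7, svp, lz and run near -3, pros and the Bar genes near elav at -1.5, and salm and salr near 0.

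Ordered by level per length, the set changed rank between the groups. In controls gl led at 50.5 ± 3.10 CPM per kilobase of merged exons (mean ± SD, n = 3 here and below), well clear of the next. B-H2 (20.7 ± 2.97), ro (20.2 ± 4.31), lz (18.5 ± 2.96) and B-H1 (14.2 ± 2.29) followed, each overlapping its neighbour in that order. salr (11.4 ± 0.562) lay apart from both its neighbours, salm (7.12 ± 1.36) and svp (6.55 ± 0.226) overlapped each other, and pros (1.48 ± 0.464) and run (1.10 ± 0.168) came last and overlapped. In dTet discs salr led at 10.6 ± 0.933 CPM per kilobase, followed by B-H2 (7.80 ± 0.408), B-H1 (6.40 ± 0.905) and salm (5.43 ± 0.714). lz stood alone in the middle at 2.61 ± 0.810. svp (0.710 ± 0.0881), pros (0.541 ± 0.282), gl (0.492 ± 0.299), run (0.170 ± 0.145) and ro (0.161 ± 0.237) made up the tail, each overlapping the next, so gl went from rank 1 to rank 8 and ro from rank 3 to rank 10. The merged exon length of pros, 24892 bases, includes all annotated transcripts, which lowers its value per kilobase if shorter ones prevail.

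**Figure D3:**
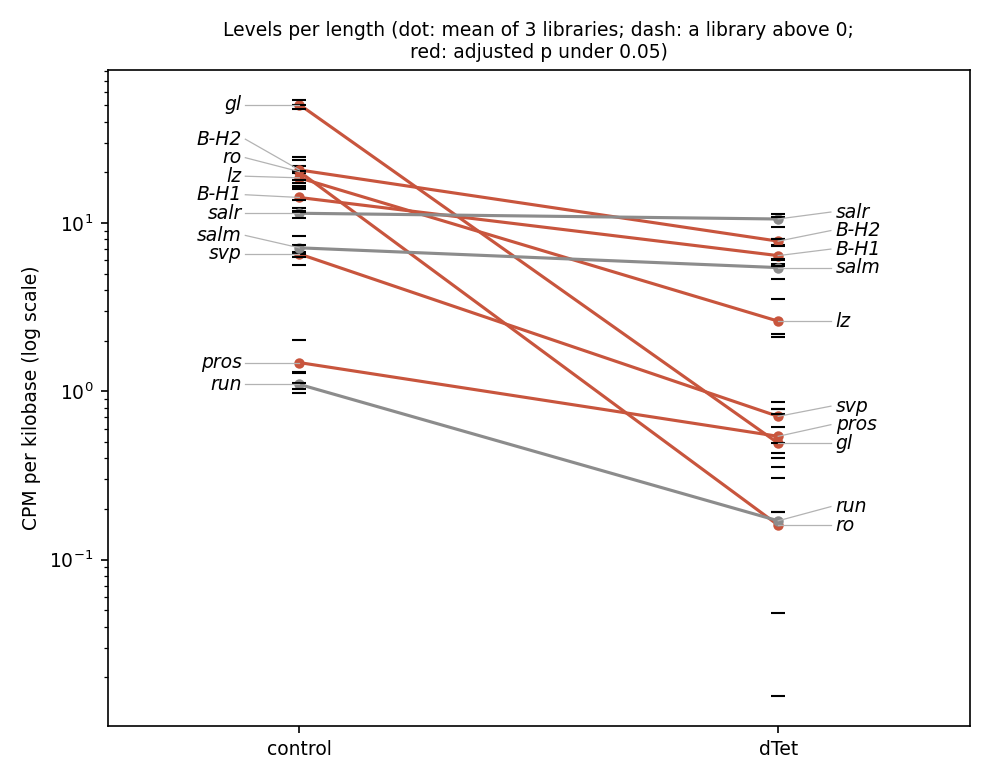
Level of each factor in CPM per kilobase on a log axis, from the control mean (left) to the dTet mean (right), with dashes for single libraries. A library at 0, dTet replicate 2 for ro, is not drawn. gl drops from the top to rank 8, while salr is nearly level and leads in dTet discs.

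The factors were next set against elav, a gene of differentiated neurons that all photoreceptors express. elav was at 84.1, 57.3 and 60.7 CPM in controls and at 24.0, 23.9 and 23.7 CPM in dTet discs, a 2.82-fold fall (95% interval 2.19 to 3.63, edgeR adjusted p = 0.000366). Its log2 fold change of -1.50 was smaller in size than the median of -2.97 over the 10 neuronal and photoreceptor structure genes listed below. Of these genes, only Fas2 (-1.21) and Nrg (-0.17) changed less than elav. The ratios therefore depend on the reference, and ratios to other genes of that list were not computed. Control replicate 1, the highest for elav, was also the highest control for lz, B-H1, B-H2 and run. Relative to elav, ro, gl, run, svp and lz were lower in dTet discs, by log2 differences of -6.32, -5.39, -1.80, -1.73 and -1.38. For these 5 every dTet library had a lower ratio than every control library. The difference of run was -0.67 without dTet replicate 3, where run had 1 count, and -2.53 without dTet replicate 1, and that of ro ranged from -7.49 to -5.30 with single dTet libraries left out. The ratios of pros (-0.05) and B-H2 (0.08) overlapped between groups, with exact permutation p of 0.8 and 0.6. Those of B-H1 (0.33), salm (1.09) and salr (1.36) were higher in every dTet library than in every control. For B-H1 the groups nearly touched, with a log2 ratio of 1.351 in control replicate 2 and 1.357 in dTet replicate 1. The exact two-sided permutation p was 0.1 for each of these 8 ratios without overlap, the smallest that 3 against 3 samples allow, so none of the 10 ratios could pass 0.05.

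**Figure D4:**
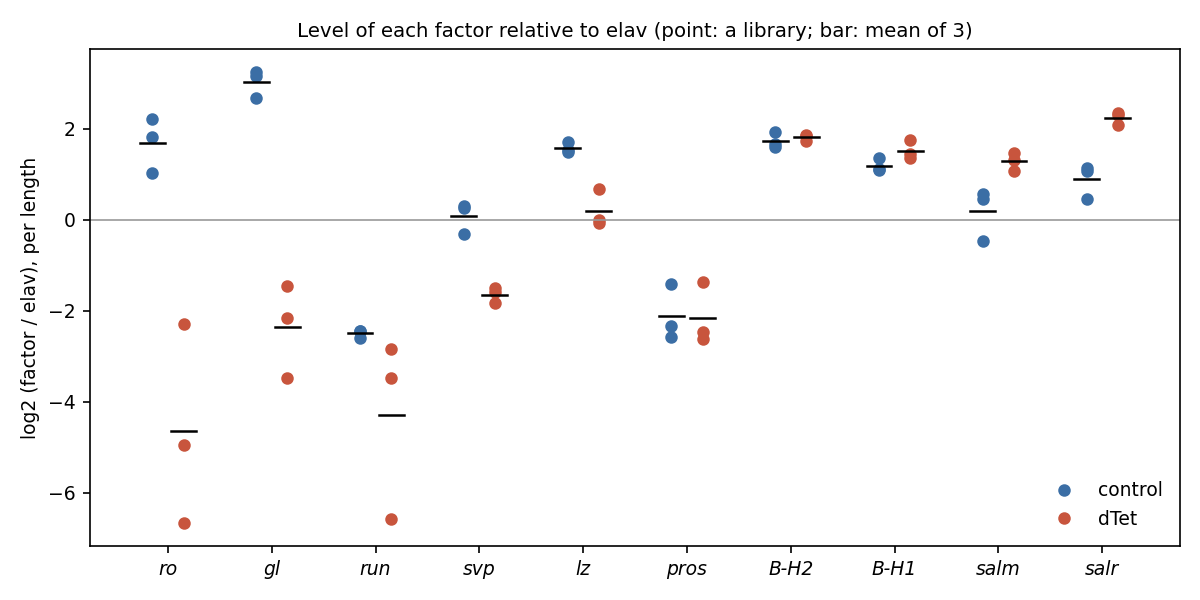
Log2 ratio of each factor to elav per length, by library (points) with the mean of each group (bars), in order of the difference. The 5 factors on the left are lower relative to elav in dTet discs, pros and B-H2 overlap, and salm and salr are higher. B-H1 is higher by a narrow margin, its groups nearly touching.

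Other regulators of photoreceptor and cone cell fate gave the setting for these values. Of 20 listed, 14 were lower and 4 higher, beside 7.64% lower and 3.77% higher among all tested genes. The median log2 fold change of the 20 was -1.70. The neuronal transcription factor genes onecut and scrt fell 33.8-fold and 59.0-fold, nerfin-1 30.9-fold and the eye specification gene so 14.5-fold (edgeR adjusted p from 4.42e-07 to 1.89e-06). sv, the Pax2 gene of cone and pigment cells, fell from 31.3 to 7.74 CPM (edgeR adjusted p = 0.000727), and Pph13, a homeobox gene of rhodopsin expression, went from 66 counts in the controls to 0 in dTet discs. Pph13, counted among the 14 lower genes, passed the filter on low counts through its control libraries alone. A call for it could hardly be other than lower. The 4 higher genes were ct, dve, ss and oc, by log2 0.81 to 0.90. Of these, ct, ss and oc are shared with the list of antennal and head genes. elav, among the lower genes here, is also counted among the neuronal and photoreceptor structure genes. sens and ttk did not pass. sv, Pph13 and the higher genes were picked with their values known.

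Signals that recruit R7 split in the same table. The receptor gene sev fell 36.8-fold (edgeR adjusted p = 4.3e-07), phyl, which encodes an adaptor for protein degradation in R7, 3.47-fold (0.0042), and the ligand gene boss of R8 went from 6.21 to 0.212 CPM (0.0162). All 13 read pairs of boss in dTet discs were in replicate 3, and boss passed the filter on low counts through its control libraries. The 7 other tested genes of the Sevenless relay, sina, drk, Sos, Ras85D, ksr, Dsor1 and rl, did not pass, with log2 fold changes from -0.11 to 0.18. Of 10 neuronal and photoreceptor structure genes, 9 were lower, among them Appl 42.3-fold, futsch 11.6-fold and the photoreceptor surface gene chp 6.62-fold, and Nrg did not pass (log2 fold change -0.17). The share of all tested genes called lower was 7.64%.

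The genes flanking the members were read from the same fit, in which 7.64% of all tested genes were lower. Among the nearest tested genes on the left of the 10 factors 1 was lower, B-H2 beside B-H1. On the right 3 were lower: B-H1 beside B-H2, lncRNA:CR44946 beside gl, and T48 beside ro at log2 -0.38 (edgeR adjusted p = 0.0361). None was higher on either side by edgeR, nor in DESeq2. At an unadjusted p under 0.05, 2 were lower on the left and 4 lower and 1 higher on the right. B-H1 and B-H2 are members themselves, so their calls as flanking genes repeat the member calls. salm and salr were likewise counted as each other's flanking genes. lncRNA:CR44946 passed the filter on low counts through its control libraries alone.

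The member with the largest fall, ro, had gl as its nearest gene in centred log2 CPM over the 6 libraries (Euclidean distance 1.05), followed by dpr7 (1.49) and dpr9 (1.53), a pair of immunoglobulin superfamily genes. salr, the member with the smallest change, lay nearest to CG17187 (0.0625), CG11905 (0.0749) and bchs (0.0843), none of which passed the test. These distances are a description over 6 libraries that share the split into 2 groups.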

How the data were processed

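Stranded libraries were prepared from total RNA of 6 samples, per the labels' protocols, and reads aligned to dm6 with HISAT2 2.2.0, per the submitters' processing notes. The authors deposited raw counts, not normalized: per the file headers, featureCounts 2.0.6 assigned read pairs to exons of FlyBase 6.45, by gene symbol, with strand setting 2. By its default, pairs overlapping exons of several genes on a strand are left out. Coordinates are those of the table.

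The main test was edgeR 4.0.16 (R 4.3.3): filterByExpr by group, TMM, and the quasi-likelihood test on all 6 libraries, with Benjamini-Hochberg adjustment over 9417 genes and a threshold of 0.05. SE and 95% intervals follow from the fold change, its F statistic and the test's degrees of freedom. CPM per kilobase divides by merged exon length, and ratios add 0.5 count. Counting intervals and floors cover counting error only, since read pairs without molecular identifiers are not molecules. Alternatives were DESeq2 size factors, upper quartile scaling, filters, DESeq2 1.42.0, limma-voom (limma 3.58.1), a replicate block, a threshold of 0.01 and leaving out each library.

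The members, 14 further gene lists (1 listed gene was not matched) and the tests were chosen with earlier results of these data known. Named genes are the members, Tet, elav, up to 4 genes of smallest adjusted p per list, flanking and overlapping genes, and the 3 genes nearest in pattern to the members of largest and smallest change; others spell out small counts or are marked. In counts simulated for 9140 genes at these library sizes, 64.2% of the 2-fold changes (106 genes) and 83.9% of the 4-fold changes (87 genes) were found, and 3.42% of calls were false. Far fewer genes were changed there than the 1074 called in the data, with rises and falls drawn at equal odds. These rates may therefore differ in the data.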

Additional observations from a re-analysis of the deposited data

How the results depend on the processing

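The directions of all 10 fold changes were the same in the 14 alternatives, and gl, ro, svp, lz, B-H1 and B-H2 passed in every one. Between 6 and 8 members were lower and 0 higher. The call of pros ended at a threshold of 0.01 (log2 fold change -1.46, adjusted p = 0.0273), and with single libraries left out its log2 fold change ranged from -1.98 to -1.18. run passed with no filter on low counts (log2 -2.72), with a filter of 1 CPM in 3 libraries (-2.71), in DESeq2 (-2.71) and in limma-voom (-3.39). salm ranged from -0.55 to -0.27 with single libraries left out and passed without control replicate 1. The 1074 genes called in all became 1669 in DESeq2, 512 at a threshold of 0.01 and 560 to 3231 with single libraries left out, the most without control replicate 1. Scaling moved the median log2 fold change of all genes by at most 0.01, from -0.02 to -0.03. With the replicate number as a block 902 genes and 7 members were called. Same-numbered libraries did not deviate together (correlations of 0.03, 0.02 and -0.10 for numbers 1, 2 and 3). These values cannot settle whether the samples were prepared in pairs, which the labels do not say. The depth limits ro and run in dTet discs, with 12 and 28 counts in 3 libraries.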
